A study of Mus musculus with 39 samples.

Results

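The sodium-coupled SLC5 sugar and inositol carriers were followed as 5 named genes, Slc5a1, Slc5a4a, Slc5a4b, Slc5a9 and Slc5a11, out of 56980 genes counted in proximal small intestine of mice. They were chosen by name, and all 5 were found through their Ensembl identifiers and passed the filter on low counts. RNA was sequenced from mucosal scrapings of 39 female C57BL/6JRccHsd mice aged 42 days, 1 library per mouse. The mice were weaned on day 21, fed 1 of 3 diets for 3 weeks and killed in the fed state, 13 mice per diet. The lactose diet held 32 en% (percent of energy) lactose, the galactose diet 16 en% galactose with 16 en% glucose, and the glucose diet 32 en% glucose. All groups also ate 32 en% as starch, 20 en% as fat, 20 en% as protein and 3 en% as fructose, so no group was free of starch or fructose. The scrapings came from the upper part of the small intestine without its first 2 cm, and they were made to collect mainly enterocytes.

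SLC5 proteins sit in the cell membrane and use the inward pull on sodium to bring a second solute into the cell, uphill if need be. The Na+/K+ pump on the blood side of the enterocyte keeps sodium low inside and so powers the uptake. In the small intestine the family is known for taking up glucose and galactose at the brush border, the step that follows the splitting of lactose by lactase and of starch by the maltases. Slc5a1 encodes SGLT1, the main carrier of glucose and galactose, whose loss in humans causes glucose-galactose malabsorption. Slc5a4a and Slc5a4b are the mouse counterparts of human SLC5A4 (SGLT3), a protein that in humans lets a sodium current pass when sugar binds and is described as a sugar sensor. Slc5a9 encodes SGLT4, which has been described as a carrier of mannose. Slc5a11 encodes SMIT2, a carrier of myo-inositol.

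Counts assigned to genes ranged from 19685385 to 21350610 per library, and the carriers were well covered. Slc5a1 had 40333 to 142260 counts in a library, Slc5a4b 8587 to 40698, Slc5a4a 537 to 5497, Slc5a11 1768 to 4154 and Slc5a9 961 to 1819. Enterocyte markers were abundant, while markers of gut region were mixed. The 14 villus enterocyte markers, among them villin and the fatty acid binding proteins, summed to 64720 to 90450 CPM (counts scaled to library size with TMM factors) with lactose, 56190 to 85550 CPM with galactose and 58780 to 94010 CPM with glucose. The ileal markers Fabp6 and Fgf15 averaged 0.0358 and 0.0185 CPM over all libraries. Yet 9 of 12 distal markers passed the filter. The distal list summed to 749.3 to 1354 CPM with lactose, 698 to 1664 CPM with galactose and 631.2 to 1395 CPM with glucose. Of 12 proximal markers 10 passed, while Trpv6 (0.063 CPM) and Onecut3 (0.289 CPM) did not. The proximal list, which shares markers with the villus list, had higher sums than the distal list. These were 24510 to 41190 CPM with lactose, 25020 to 37400 CPM with galactose and 23110 to 41380 CPM with glucose. Library galactose 4 stood apart by pancreatic transcripts, with 67710 CPM summed over 10 markers, against medians of 24.02 CPM with lactose, 24.3 CPM with galactose and 24.46 CPM with glucose. All 3 pancreatic markers that passed the filter were higher with galactose than with glucose. Leaving this library out changed no carrier's call. The titles of the libraries carry running numbers, which form 13 triplets of neighbours with 1 mouse of each diet. These are no labelled batch, yet they bear on several carriers as described further on. In whole tissue, fewer cells of a type and less RNA per cell cannot be told apart.

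Slc5a4a and Slc5a4b are neighbours on chromosome 10, between Zfp280b and Prmt2, and are read away from each other. Slc5a1 lies on chromosome 5, Slc5a9 on chromosome 4 and Slc5a11 on chromosome 7. Between the coding sequences of Slc5a4a and Slc5a4b 79.2% of 1970 aligned bases were the same, against 72.3% for Slc5a1 with Slc5a4a and 73.1% for Slc5a1 with Slc5a4b. The longest stretch shared by transcripts of Slc5a4a and Slc5a4b had 50 bases, and no pair of carriers shared a window of 100 bases. The promoters of 3 carriers are shown because Slc5a4a, as described further on, tracked the distant Slc5a1 and not its neighbour Slc5a4b. Each runs from 150 bases before the transcription start to 30 bases after it, 5′ to 3′ on the strand of the gene, from RefSeq on build GRCm38.p6, whereas the counts were made on GRCm39. The capitals in the Slc5a4a and Slc5a4b sequences mark the longest stretch their 300-base promoters share, and the capitals in Slc5a1 mark CACGTG, the E box of carbohydrate response elements.
Slc5a4b, chr10:76110989-76111168, minus strand: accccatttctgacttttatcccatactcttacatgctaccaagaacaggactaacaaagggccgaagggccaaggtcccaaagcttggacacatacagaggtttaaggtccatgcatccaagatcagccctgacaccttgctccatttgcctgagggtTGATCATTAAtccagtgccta
Slc5a4a, chr10:76147301-76147480, plus strand: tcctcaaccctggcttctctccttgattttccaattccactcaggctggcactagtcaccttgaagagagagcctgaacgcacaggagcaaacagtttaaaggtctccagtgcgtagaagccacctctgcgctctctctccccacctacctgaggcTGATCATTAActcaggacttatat
Slc5a1, chr5:33104069-33104248, plus strand: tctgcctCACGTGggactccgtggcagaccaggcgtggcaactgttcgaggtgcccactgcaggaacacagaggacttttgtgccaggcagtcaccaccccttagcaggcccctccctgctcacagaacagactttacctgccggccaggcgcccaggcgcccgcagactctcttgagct
The shared stretch TGATCATTAA begins 10 bases after the start in Slc5a4b and 7 bases after it in Slc5a4a, and it occurs in 12 of 32851 RefSeq promoters of the same length. Over 300 bases the promoters of Slc5a4a and Slc5a4b were the same at 62.0% of aligned bases, against 54.6% for Slc5a1 with Slc5a4a and 52.7% for Slc5a1 with Slc5a4b. On both strands, CACGTG was found in Slc5a1 alone among the 4 carriers with a promoter entry, and in 7.15% of all promoters. The GATA site AGATAA (11.2% of promoters) and the GC box GGGCGG (35.7%) were in none of the 4. The TATA box TATAAA (13.6% of promoters) was found in Slc5a4a alone, 188 bases before the start, and the CDX site TTTATG (11.9%) in Slc5a4b alone, 31 bases after it, both on the opposite strand. These are matches of letters in a window and no measure of binding.

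Per kilobase of exon, the order of mean levels was the same with each diet: Slc5a1, Slc5a4b, Slc5a4a, Slc5a11 and Slc5a9. Slc5a1 averaged 1270 ± 274 CPM per kilobase with lactose, 1125 ± 313 with galactose and 960.4 ± 295 with glucose (SD, n = 13 each). Slc5a4b averaged 531.0 ± 61.2 CPM per kilobase with lactose, 187.5 ± 40.8 with galactose and 319.7 ± 68.5 with glucose. Slc5a1 lay beyond the spread of all others and Slc5a4b beyond that of the rest. Slc5a4a averaged 70.25 ± 20.8 CPM per kilobase with lactose, 60.98 ± 26.5 with galactose and 50.12 ± 26.5 with glucose. Slc5a11, which differed from Slc5a4a by less than these SDs, averaged 63.24 ± 7.86 CPM per kilobase with lactose, 55.59 ± 10.2 with galactose and 47.40 ± 8.77 with glucose. Slc5a9 was lowest, with 12.79 ± 2.33 CPM per kilobase with lactose, 13.07 ± 2.17 with galactose and 10.78 ± 1.81 with glucose. Of the summed level per kilobase of the 5 carriers, Slc5a1 made up 64.7% with lactose, 77.0% with galactose and 68.1% with glucose. Slc5a4b made up 27.9% with lactose, 14.0% with galactose and 24.2% with glucose.

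Slc5a4b was the carrier that separated the diets. Its lowest, median and highest levels were 1358, 1661 and 2002 CPM with lactose, 397.5, 603.3 and 829.3 CPM with galactose, and 562.9, 1064 and 1306 CPM with glucose. Every lactose mouse lay above every mouse of the other diets, and every galactose mouse lay below the glucose mean, 4 of them below the lowest glucose mouse. The means were 1700 ± 196 CPM with lactose, 600.5 ± 130 CPM with galactose and 1024 ± 219 CPM with glucose (SD, n = 13 each).

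**Figure D1:**
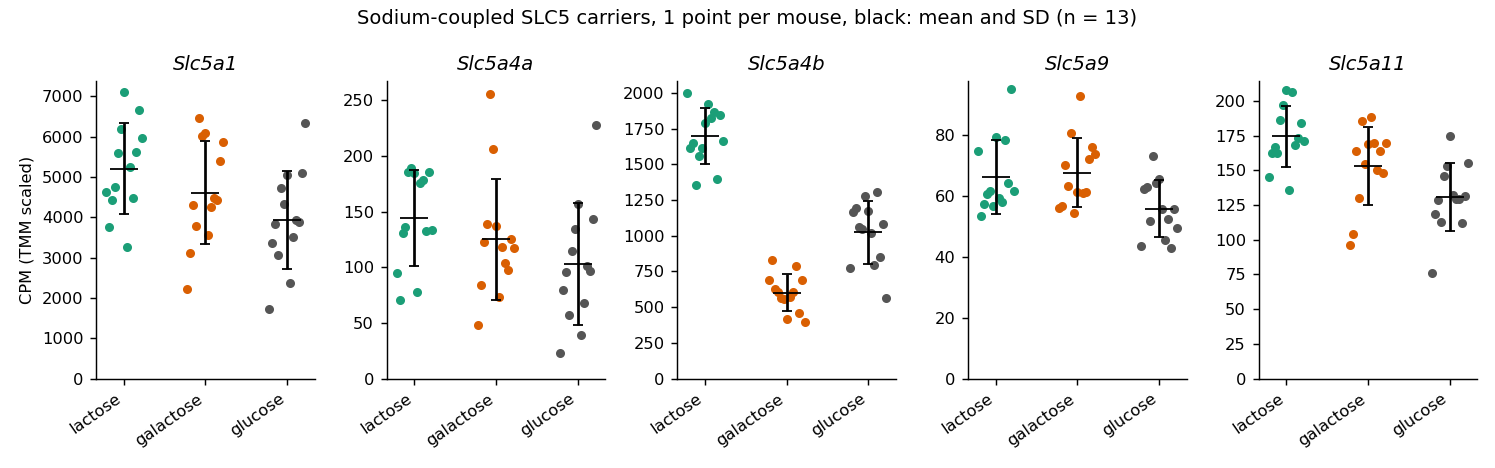
CPM of the 5 carriers (vertical axes, starting at 0) in each mouse by diet, 1 point per mouse, with black bars for mean and SD (n = 13). For Slc5a4b the 13 lactose points lie between 1358 and 2002 CPM, above all others, and the galactose points lie between 397.5 and 829.3 CPM. For the other 4 carriers the diets overlap.

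With galactose in place of part of the glucose, Slc5a4b fell by 0.77 on the log2 scale (SE 0.11, 95% interval -0.99 to -0.55, a 1.70-fold difference, edgeR adjusted p = 2.83e-05). It was the only carrier of 5 that passed, where 4.07% of all 14658 tested genes passed, 1.21% as higher and 2.87% as lower, and it ranked 9 by p. The other carriers did not pass in this fit. Slc5a1 differed by 0.23 (SE 0.16, interval -0.09 to 0.54, adjusted p = 0.421), Slc5a4a by 0.28 (SE 0.24, interval -0.21 to 0.78, adjusted p = 0.536) and Slc5a11 by 0.23 (SE 0.10, interval 0.03 to 0.43, adjusted p = 0.17). With triplets as a block Slc5a11 passed (0.23, adjusted p = 0.0351), as it did with voom (0.25, adjusted p = 0.0455). Slc5a9 differed by 0.28 (SE 0.09, interval 0.09 to 0.47, adjusted p = 0.0775). It passed under several other choices, DESeq2 (adjusted p = 0.0433) and library totals (0.0232) among them, and without galactose 2 or without glucose 5. It was 0.10 in the first 6 mice per diet (adjusted p = 0.864) and 0.19 with the regional score (0.18).

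With lactose in place of glucose, Slc5a4b rose by 0.73 on the log2 scale (SE 0.11, interval 0.51 to 0.95, 1.66-fold, edgeR adjusted p = 2.28e-05). Like Slc5a4b, 0.0887% of all tested genes lay wholly above the glucose group, and 0.0136% wholly below it. Slc5a11 was the second of the 2 carriers that passed, where 15.6% of all genes passed, 8.73% as higher and 6.84% as lower. It rose by 0.42 (SE 0.10, interval 0.22 to 0.61, 1.33-fold, adjusted p = 0.00308).

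For Slc5a11 the lowest, median and highest levels were 135.7, 170.9 and 207.7 CPM with lactose, 95.89, 163.6 and 188.1 CPM with galactose, and 76.28, 129.7 and 174.4 CPM with glucose. The diets overlapped, but all 13 lactose mice lay above the glucose mean of 130.7 ± 24.2 CPM, and 5 above the highest glucose mouse. The lactose mean was 174.4 ± 21.7 CPM and the galactose mean 153.3 ± 28.1 CPM. Villus enterocyte markers moved with the lactose diet as well. Of 14, 5 were higher and none lower against glucose, where 8.73% of all genes were higher. Among the higher ones were Dpp4 (log2 0.71), Enpep (0.78), Anpep (0.91) and Fabp2 (0.54). With library totals 4 were higher and 3 lower. Slc5a11 followed the mean score of the villus list over mice, as given further on. With that score as a covariate, chosen after seeing the data, the Slc5a11 difference was 0.26 (edgeR adjusted p = 0.0301). With a score of crypt, fibroblast and muscle markers as a covariate it was 0.29 and no longer passed (adjusted p = 0.0925). In the first 6 mice per diet alone it was 0.48 (adjusted p = 0.322).

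Slc5a1, which carries the bulk of intestinal glucose and galactose uptake, was not called at the threshold. Its lowest, median and highest levels were 3262, 5249 and 7112 CPM with lactose, 2227, 4430 and 6463 CPM with galactose, and 1740, 3875 and 6333 CPM with glucose. The 3 ranges overlapped over most of their width, with 11 of 13 lactose mice above the glucose mean. Lactose differed from glucose by 0.40 (SE 0.16, interval 0.09 to 0.72, edgeR adjusted p = 0.071). The call depended on the model. With triplets of neighbouring title numbers as a block the difference was 0.45 (SE 0.08, adjusted p = 5.17e-04), with DESeq2 0.41 (adjusted p = 0.0471) and with limma voom 0.47 (adjusted p = 0.0148). It also passed without lactose 8 or without glucose 13. The difference was smaller and did not pass with library totals (0.30, edgeR adjusted p = 0.127). The same was so with the tissue (0.28, adjusted p = 0.407), regional (0.33, 0.242) or villus score (0.29, 0.307) as covariate.

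Slc5a4a varied most among mice. Its lowest, median and highest levels were 70.99, 136.6 and 189.5 CPM with lactose, 48.23, 118.3 and 255.7 CPM with galactose, and 23.17, 96.91 and 228.2 CPM with glucose. The ranges overlapped throughout, and the SD was 29.6% of the mean with lactose, 43.5% with galactose and 52.9% with glucose. Lactose differed from glucose by 0.49 (SE 0.24, interval -0.01 to 0.98, edgeR adjusted p = 0.163), and by 0.60 with triplets as a block (adjusted p = 0.00932). Galactose against glucose changed sign in the last 7 mice per diet alone, where it was -0.12.

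Slc5a9 had lowest, median and highest levels of 53.46, 61.60 and 95.27 CPM with lactose, 54.36, 63.42 and 93.06 CPM with galactose, and 43.06, 55.76 and 73.23 CPM with glucose. The lactose and galactose mice covered nearly the same range, and 12 of 13 mice of either diet lay above the glucose mean of 55.91 ± 9.37 CPM. Lactose differed from glucose by 0.25 (SE 0.09, interval 0.06 to 0.43, edgeR adjusted p = 0.0627). It passed with DESeq2 (adjusted p = 0.0429) and without lactose 2 or without any 1 of glucose 5, 6 and 7. The value was smaller, and did not pass, with library totals (0.15) and with the regional (0.11, adjusted p = 0.452), tissue (0.13, 0.524) or villus score (0.14, 0.328) as covariate. It was 0.035 in the first 6 mice per diet (adjusted p = 0.932) and 0.42 in the last 7 (0.0219). The lactose and galactose comparisons share the glucose mice, so a low glucose group enters both.

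**Figure D2:**
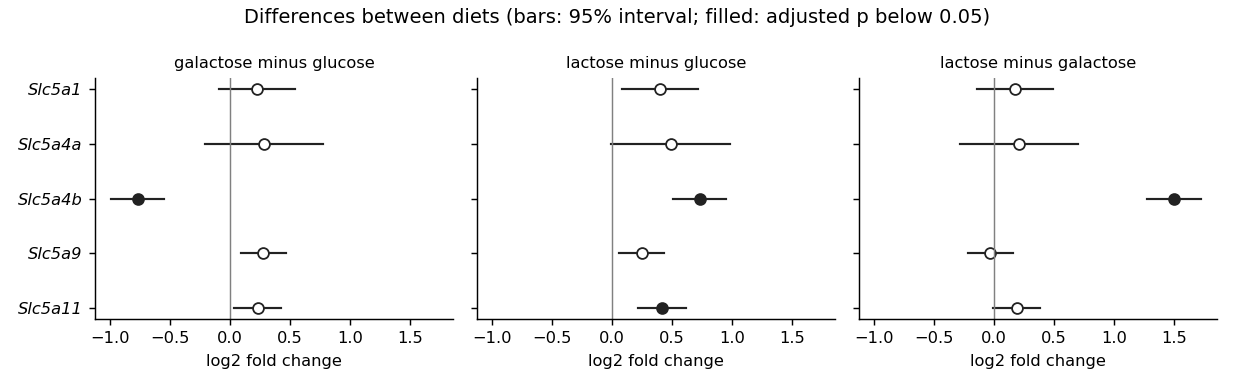
Log2 fold change (horizontal axis) of each carrier in the 3 comparisons, with bars for the 95% interval and filled points for edgeR adjusted p below 0.05. Slc5a4b is filled in all 3 panels, at -0.77, 0.73 and 1.50, and Slc5a11 only in lactose minus glucose, at 0.42.

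Lactose against galactose sets the bound sugars against the same sugars given free. Slc5a4b was 1.50 higher on the log2 scale with lactose (SE 0.11, interval 1.28 to 1.73, 2.83-fold, edgeR adjusted p = 2.9e-12). It had the smallest p of all 14658 tested genes in this comparison, and the groups did not overlap, as was so for 0.621% of genes on the higher side. It was the only 1 of the 5 carriers called, where 30.9% of all genes were called. Slc5a1 differed by 0.17 (SE 0.16, interval -0.14 to 0.49, adjusted p = 0.41), Slc5a4a by 0.20 (SE 0.24, interval -0.29 to 0.70, adjusted p = 0.55), Slc5a9 by -0.03 (SE 0.09, interval -0.22 to 0.16, adjusted p = 0.818) and Slc5a11 by 0.19 (SE 0.10, interval -0.01 to 0.38, adjusted p = 0.144). Slc5a11 passed with triplets as a block (0.20, adjusted p = 0.0202).

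Markers of the tissue under the epithelium also differed between these diets. All 12 smooth muscle markers were lower with lactose than with galactose, at summed levels of 252.2 to 559.9 CPM against 415.6 to 1574 CPM, and so were 6 of 8 tested fibroblast markers, at 443.1 to 770.7 CPM against 643.5 to 917.9 CPM. None of the 12 muscle markers was at 0 in all mice. Of 7 myeloid markers 6 were lower with lactose than with galactose, and of 10 crypt markers 3, among them Lgr5 (log2 -1.07). Over all genes 15% were lower and 15.9% higher in this comparison. Of 9 tested B and plasma cell markers 4 were higher with lactose than with galactose and 4 than with glucose. Over all genes 8.73% were higher with lactose than with glucose. Goblet, Paneth, T cell and enteroendocrine or tuft cell lists had at most 1 called marker in any comparison (edgeR with TMM). With library totals 6 crypt, 3 T cell, 2 Paneth and 2 enteroendocrine or tuft cell markers were lower with lactose than with galactose. With the score of crypt, fibroblast and muscle markers as a covariate, Slc5a4b was 1.41 higher with lactose than with galactose (edgeR adjusted p = 1.19e-07), 0.73 lower with galactose than with glucose (log2 -0.73, adjusted p = 6.11e-04) and 0.68 higher with lactose than with glucose (adjusted p = 8.35e-04). With the same covariate the differences of Slc5a1, Slc5a4a and Slc5a11 between lactose and galactose turned to -0.063, -0.082 and -0.029.

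Over the 3 diets together, Slc5a4b had the second smallest p of all tested genes (edgeR F test of any difference, adjusted p = 7.95e-12), Slc5a11 passed (adjusted p = 0.0042), and so did Slc5a9 (adjusted p = 0.0345). Slc5a1 (adjusted p = 0.11) and Slc5a4a (0.249) did not pass, and 30.3% of all genes did. Diet accounted for 83.2% of the variance of log2 CPM of Slc5a4b, 32.8% of that of Slc5a11, 22.6% of Slc5a9, 16.3% of Slc5a1 and 13.7% of Slc5a4a. Diet effects were also compared between the first 6 and the last 7 mice per diet. Among the 15 interactions of diet with these runs the smallest p belonged to Slc5a9 in lactose minus glucose (edgeR p = 0.0272, adjusted p = 0.731).

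The within-library ratio of Slc5a4b to Slc5a1 counts does not depend on scaling between libraries. Its lowest, median and highest values per 100 Slc5a1 counts were 24.96, 28.53 and 58.98 with lactose, 6.77, 14.26 and 31.09 with galactose, and 8.89, 29.52 and 44.62 with glucose. The ranges of all 3 diets overlapped. Of 13 galactose mice 3 lay below the lowest glucose mouse, and of 13 lactose mice 6 lay above the highest galactose mouse. The mean log2 ratio was 1.01 lower with galactose than with glucose (log2 difference -1.01, SE 0.25, permutation adjusted p = 0.00117 over 3 comparisons). It was 1.32 higher with lactose than with galactose (SE 0.22, permutation adjusted p = 6e-05). Lactose and glucose differed by 0.32 (SE 0.20, permutation adjusted p = 0.121), which did not pass when mice were permuted without regard to triplets. Paired within the 13 triplets, a test chosen after seeing the data, lactose lay above glucose in 10 of 13 (SE 0.13, exact test over sign changes, adjusted p = 0.012), and the difference was 0.21 without the triplet of glucose 13 (adjusted p = 0.0239 by the same exact test). Paired in the same way, galactose lay below glucose and lactose above galactose in all 13 triplets (exact adjusted p = 3.66e-04 each). In the first 6 and the last 7 mice per diet the galactose minus glucose differences were -1.02 and -0.99 (exact permutation tests, adjusted p = 0.026 and 0.0219). Lactose minus glucose was 0.063 and 0.54 in these runs and passed in neither (exact permutation tests, adjusted p = 0.745 and 0.117). Lactose minus galactose was 1.085 and 1.53 (exact permutation tests, adjusted p = 0.026 and 0.00175).

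**Figure D3:**
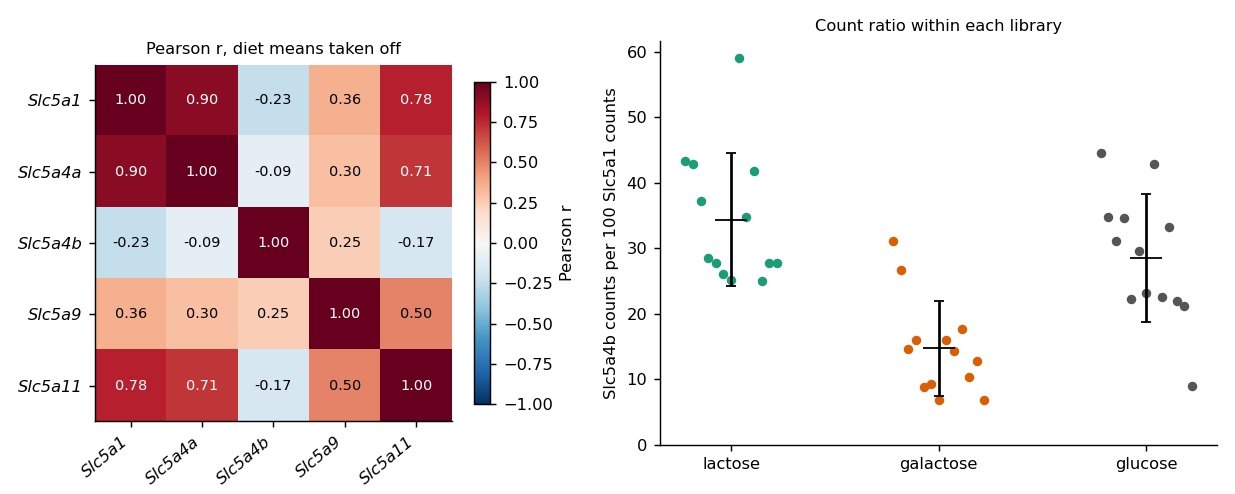
Left, Pearson r between the carriers over 39 libraries after each diet mean was taken off log2 CPM, from -1 (blue) to 1 (red). Right, Slc5a4b counts per 100 Slc5a1 counts (vertical axis, starting at 0) in each mouse, with black bars for mean and SD: 34.37 ± 10.1 with lactose, 14.69 ± 7.28 with galactose and 28.51 ± 9.81 with glucose.

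Within diets Slc5a1, Slc5a4a and Slc5a11 varied together, Slc5a9 passed with Slc5a11 alone and Slc5a4b with none of the others. Slc5a1 and Slc5a4a had r = 0.90 over 39 libraries after the diet means were taken off, and rho = 0.83 (permutation within diets, adjusted p = 5e-05 for both over the 10 pairs). The raw p of 1e-05 is the smallest that 100000 resamples can give. Libraries were permuted within diets without regard to triplets, so the permutation p values of correlations here and below may be too small. Within diets r was 0.80 with lactose, 0.85 with galactose and 0.99 with glucose, 0.97 in the first run of titles and 0.89 in the second. Without glucose 1 and galactose 1, the 2 libraries farthest from the median of Slc5a1, it was 0.86. For each pair of carriers the 2 farthest libraries were those of 1 carrier only, the earlier in the order given at the outset. Among 11226 genes, Slc5a1 was the gene most like Slc5a4a, and Slc5a4a ranked 5 for Slc5a1.

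Slc5a11 joined this pair, with r = 0.78 and rho = 0.67 to Slc5a1 (permutation adjusted p = 5e-05 for both) and r = 0.71 and rho = 0.61 to Slc5a4a (permutation adjusted p = 6.67e-05 and 1.67e-04). Without the 2 farthest libraries these r were 0.64 and 0.55. They were 0.94 and 0.92 in the first run of titles but 0.48 and 0.49 in the second, where neither passed (permutation adjusted p = 0.135 each). Slc5a9 followed Slc5a11 with r = 0.50 and rho = 0.44 (permutation adjusted p = 0.0041 and 0.0154; r = 0.48 without the 2 farthest). Slc5a9 did not pass with Slc5a1 (r = 0.36, rho = 0.31, adjusted p = 0.0604 and 0.0975 by permutation) or Slc5a4a (r = 0.30, rho = 0.29, adjusted p = 0.122 and 0.123 by permutation), where r was 0.23 and 0.16 without the 2 farthest. With library totals in place of TMM, r of Slc5a9 and Slc5a11 was 0.34 and no longer passed (permutation adjusted p = 0.0795).

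Slc5a4b did not follow its chromosomal neighbour. Its r to Slc5a4a was -0.09 (rho = -0.04, permutation adjusted p = 0.629 and 0.821), and -0.19 without the 2 farthest libraries. To Slc5a1 it was -0.23 (rho = -0.19, adjusted p = 0.24 and 0.303 by permutation), to Slc5a11 -0.17 (rho = -0.21, adjusted p = 0.388 and 0.27 by permutation) and to Slc5a9 0.25 (rho = 0.32, adjusted p = 0.194 and 0.0975 by permutation). Without glucose 1 and galactose 1, the libraries also left out for Slc5a4a, r to Slc5a1 was -0.35, and glucose 13 stayed in. Without glucose 13 and galactose 13, farthest in Slc5a4b, r was -0.06 to Slc5a11 and 0.28 to Slc5a9. Values within single diets ran apart and were not tested. In galactose, lactose and glucose mice r of Slc5a4b was -0.29, -0.10 and 0.04 with Slc5a4a, and -0.55, -0.15 and -0.0015 with Slc5a1. It was -0.58, -0.16 and 0.21 with Slc5a11, and -0.29, 0.45 and 0.64 with Slc5a9. The sign of r between Slc5a4b and each of Slc5a1, Slc5a4a and Slc5a11 changed in the first run of titles, where r was 0.031, 0.057 and 0.019. Library glucose 13 had the highest glucose level of Slc5a1 (6333 CPM) and of Slc5a4a (228.2 CPM) together with the lowest glucose level of Slc5a4b (562.9 CPM).

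**Figure D4:**
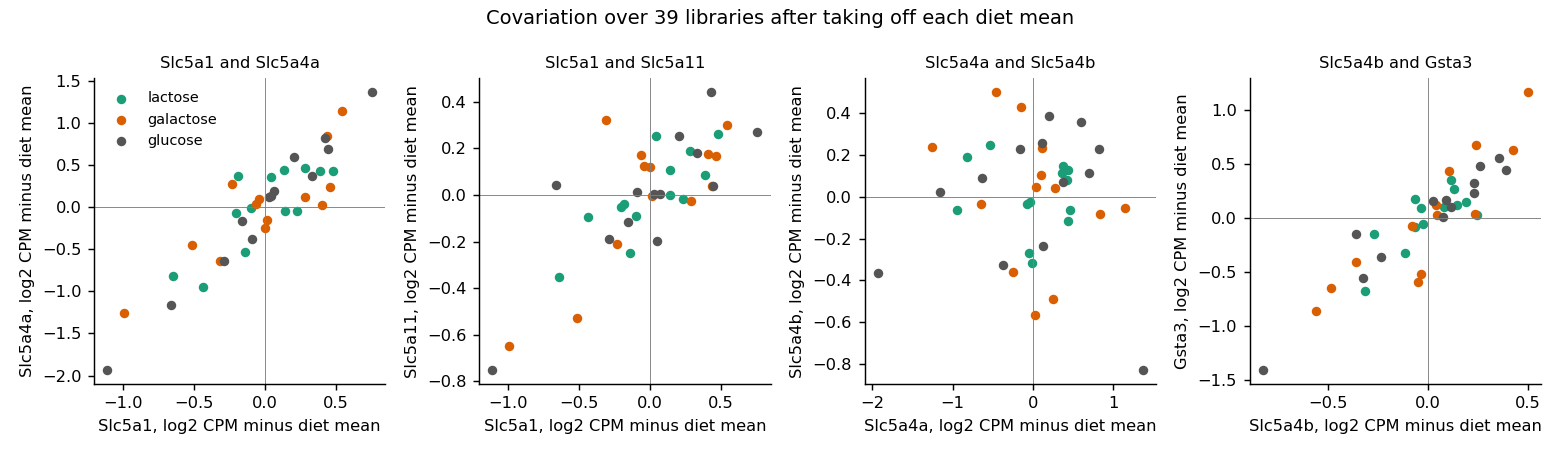
Log2 CPM minus the diet mean for 4 pairs of genes, 1 point per library, coloured by diet. Slc5a1 rises with Slc5a4a (r = 0.90) and with Slc5a11 (r = 0.78), Slc5a4b shows no slope with Slc5a4a (r = -0.09), and Slc5a4b rises with Gsta3 (r = 0.90).

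Part of the variation within diets ran with the order of the titles. Triplets differed in Slc5a1 (edgeR F test, adjusted p = 1.09e-04), Slc5a4a (0.00405) and Slc5a11 (0.0106), not past the threshold in Slc5a4b (0.199) and Slc5a9 (0.534), where 8.81% of all genes passed. Of the variance left within diets, triplets took up 83.4% for Slc5a1, 73.4% for Slc5a4a, 70.6% for Slc5a11, 50.6% for Slc5a4b and 33.2% for Slc5a9, against a median of 42.4% over all tested genes. The first triplet held the lowest Slc5a1 levels of its diets for glucose (1740 CPM) and galactose (2227 CPM). With triplet means taken off as well, r of Slc5a1 and Slc5a4a was 0.72 (permutation adjusted p = 5e-05), of Slc5a1 and Slc5a11 0.64 and of Slc5a4a and Slc5a11 0.40. What the title numbers stand for is not in the labels, and its part in these correlations was not tested beyond this.

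**Figure D5:**
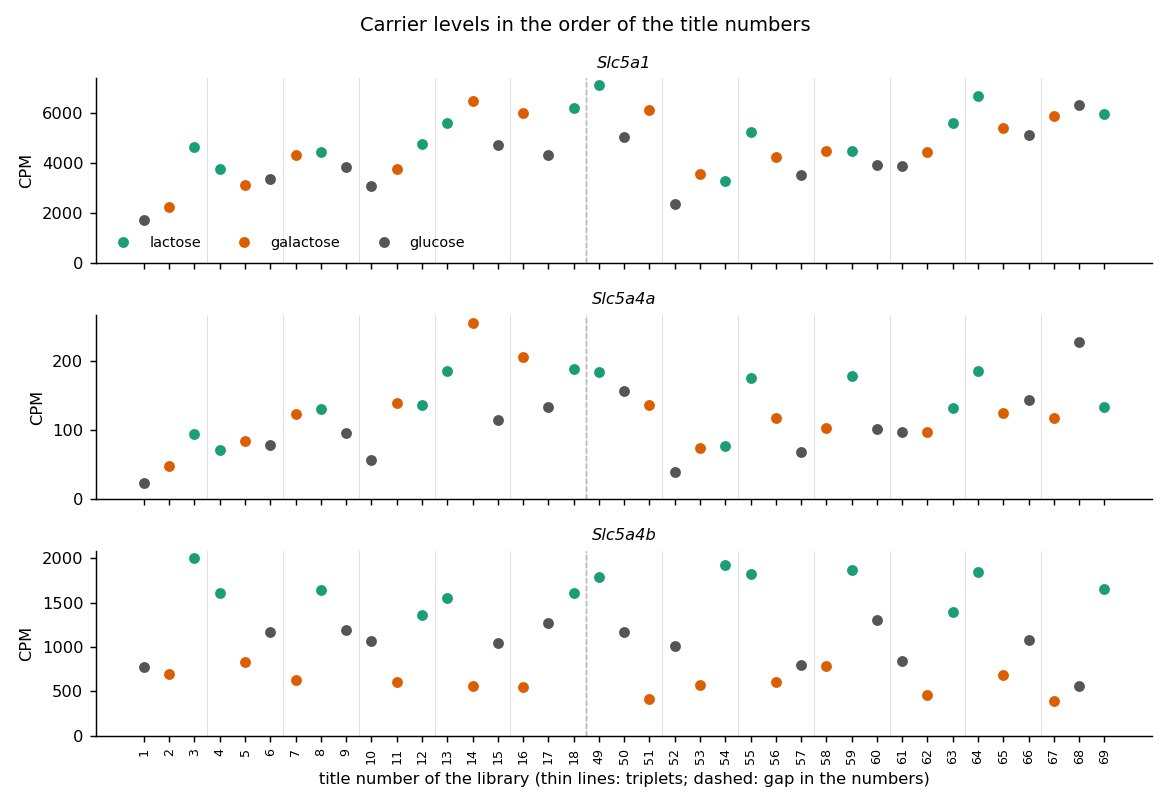
CPM of Slc5a1, Slc5a4a and Slc5a4b (vertical axes, starting at 0) in the order of the title numbers (horizontal axis), coloured by diet, with thin lines between triplets and a dashed line at the gap in the numbers. Slc5a1 and Slc5a4a rise and fall together along the axis, while Slc5a4b stays highest with lactose.

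The genes most like each carrier over the 39 libraries, with diet means taken off, are given as a description with no test, since libraries share triplets. For Slc5a1 they included Atp1b1 (r = 0.95), Osbpl3 (0.92), the facilitative hexose carrier Slc2a7 (0.91) and Slc5a4a (0.90). The lowest were Leo1 (-0.89), Ywhag (-0.88) and Fermt1 (-0.87). Atp1b1 was not called in any comparison. For Slc5a4a they were Slc5a1 (0.90), Cyp2c23 (0.90), Slc2a7 (0.86), Acsm5 (0.86) and Osbpl3 (0.84).

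For Slc5a4b they were another set of genes: the glutathione transferase Gsta3 (r = 0.90), catalase Cat (0.83), the aldo-keto reductase Akr1b8 (0.81), Ugdh (0.80), which oxidises UDP-glucose to UDP-glucuronate, and Pgm1 (0.79), which interconverts glucose phosphates. Although they were ranked on variation within diets, all 5 were lower with galactose than with glucose, with log2 differences of -1.28 for Gsta3, -0.52 for Cat, -2.02 for Akr1b8, -0.59 for Ugdh and -0.87 for Pgm1 (edgeR adjusted p of at most 4.91e-04). All 5 were higher with lactose than with galactose, by 2.02 for Gsta3, 0.73 for Cat, 2.36 for Akr1b8, 0.99 for Ugdh and 1.26 for Pgm1 (edgeR adjusted p of at most 2.57e-07). With lactose against glucose Gsta3 (0.74, edgeR adjusted p = 0.00438), Ugdh (0.40, 0.00278) and Pgm1 (0.39, 0.0356) were higher, while Cat (0.20, 0.131) and Akr1b8 (0.34, 0.396) did not pass. Gsta3 averaged 283.1 CPM with lactose, 69.70 CPM with galactose and 169.4 CPM with glucose. In lactose mice alone r to Slc5a4b was 0.75 for Gsta3, 0.71 for Cat, 0.35 for Akr1b8, 0.58 for Ugdh and 0.57 for Pgm1. In the first run of titles it was 0.81, 0.82, 0.59, 0.69 and 0.63 in the same order. Library glucose 13 lay far below its diet mean in both Slc5a4b (log2 -0.83) and Gsta3 (-1.41). Over all libraries the lowest r belonged to Unc5cl (-0.65), Prodh (-0.63) and Parp3 (-0.61).

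For Slc5a9 the most alike were Ace (r = 0.85), Cyp4v3 (0.84), Tmem30b (0.83), Tbc1d5 (0.83) and Naip5 (0.82), and for Slc5a11 they were Slc3a1 (0.89) and Slc7a9 (0.89), the partners of the brush border carrier of cystine and dibasic amino acids, then Sult2b1 (0.88), Clcn2 (0.88) and Lta4h (0.86). Both carriers also followed scores made from cell type and region markers. Slc5a11 had r = 0.72 and rho = 0.61 with the villus enterocyte score (permutation adjusted p = 1.5e-04 and 0.00135 over 15 relations), 0.58 without the 2 farthest libraries, and 0.88 and 0.66 in the 2 runs of titles. Slc5a9 had r = 0.60 and rho = 0.56 with a score of distal minus proximal intestinal markers (permutation adjusted p = 0.0012 and 0.00285), 0.52 without the 2 farthest, and 0.67 and 0.56 in the 2 runs. Of 9 tested distal markers 3 were higher and 1 lower with lactose than with glucose, where 8.73% of all genes were higher and 6.84% lower. The median log2 difference was 0.006 for the distal list and -0.22 for the proximal list, against -0.026 over all genes. Of 10 proximal markers none was called in this comparison by edgeR, DESeq2 or voom, with 5 at an unadjusted edgeR p under 0.05. With library totals 5 of these 10 were called lower, and of the distal markers 2 higher and 1 lower. Slc5a9 also had r = 0.55 with the villus score (permutation adjusted p = 0.00235). The proximal list shares markers with the villus list, so the regional and villus scores are not independent. The distal list shares a marker with the enteroendocrine and tuft cell list. For Slc5a4b r was 0.13 with the villus score, 0.11 with the regional score and -0.17 with the score of crypt, fibroblast and muscle markers, none past the threshold (permutation adjusted p = 0.514, 0.528 and 0.45).

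The other SLC5 genes were mostly scarce. Of 8, Slc5a2, Slc5a5, Slc5a7 and Slc5a10 were below the filter, at 0.0581 to 0.157 CPM on average, and 4 were tested. None passed with galactose against glucose in edgeR, DESeq2 or voom, and none had an unadjusted edgeR p under 0.05. Slc5a6, the carrier of biotin and pantothenate, was higher with lactose. It averaged 60.77 ± 17.7 CPM there, against 33.95 ± 12.7 CPM in glucose mice (log2 0.84, edgeR adjusted p = 0.00213) and 28.37 ± 10.1 CPM in galactose mice (log2 1.10, adjusted p = 2.75e-05). Slc5a8, a carrier of lactate and other monocarboxylates, was also higher with lactose than with galactose (11.13 ± 13.6 against 2.832 ± 2.55 CPM, log2 1.98, adjusted p = 0.0204), with a wide spread. Slc5a12, which carries similar solutes, averaged 103.8 ± 41.6 CPM with lactose, 62.22 ± 56.8 CPM with galactose and 47.85 ± 45.3 CPM with glucose and did not pass in any comparison.

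The steps on either side of sugar uptake were read from lists of genes. Of 15 tested genes of sugar digestion and facilitative hexose carriage none passed with galactose against glucose in edgeR, though 4 had an unadjusted p under 0.05 and DESeq2 and voom each called 1 as higher. With lactose against glucose 3 were higher and 2 lower, with a list median of 0.21 against -0.03 over all genes. Slc2a5, the fructose carrier GLUT5, averaged 576.4 ± 169 CPM with lactose and 360.0 ± 107 CPM with glucose (log2 0.68, edgeR adjusted p = 0.011). Lct, lactase, averaged 1806 ± 592 CPM with lactose and 2416 ± 622 CPM with glucose (log2 -0.42, adjusted p = 0.0364). Slc2a9 (0.44) and trehalase Treh (0.41) rose and Slc2a8 (-0.32) fell. Slc2a2, the GLUT2 carrier through which glucose and galactose leave the enterocyte, averaged 752.0 ± 140 CPM with lactose, 801.3 ± 152 CPM with galactose and 703.5 ± 162 CPM with glucose and was not called in any comparison. With lactose against galactose 3 genes of this list were higher and 3 lower, and 2 and 4 with library totals. With TMM 15.6% of all genes were called for lactose against glucose and 30.9% for lactose against galactose.

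Galactose enters metabolism through the Leloir pathway. The list of 10 genes read here also holds enzymes of UDP-sugars and glucose phosphates. With galactose against glucose 4 were lower and none higher, where 2.87% of all genes were lower. They were Pgm1 (log2 -0.87), Ugdh (-0.59), Ugp2 (-0.44) and Galk1 (-0.33). Galk1 is the kinase that starts the pathway, while Ugdh and Pgm1 are the enzymes of UDP-glucose and glucose phosphates described above. With lactose against glucose 4 were higher and none lower, led by Ugp2 (0.52) and Ugdh (0.40). With lactose against galactose 5 were higher and none lower. Over all genes 8.73% and 15.9% were higher in these comparisons. The list median was -0.05 for galactose against glucose, 0.14 for lactose against glucose and 0.16 for lactose against galactose. With library totals in place of TMM the median of all genes moved to -0.13 for lactose against glucose and -0.16 for lactose against galactose (-0.03 and -0.02 with TMM). The calls over all genes then were 623 higher and 2904 lower for lactose against glucose (1279 and 1002 with TMM), 1064 higher and 4957 lower for lactose against galactose (2328 and 2204), and 315 higher and 286 lower for galactose against glucose (177 and 420). With those totals the counts of this list became 2 higher and 2 lower for lactose against glucose. They became 3 higher and 1 lower for lactose against galactose, while galactose against glucose kept its counts.

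Of 16 tested genes tied to SGLT1 control or sweet taste, none passed with galactose against glucose in edgeR, DESeq2 or voom, and none had an unadjusted edgeR p under 0.05. With lactose against glucose 1 passed, Pdzk1ip1, which was scarce (0.4906 ± 0.201 against 0.8598 ± 0.328 CPM, log2 -0.80, edgeR adjusted p = 0.0145). With lactose against galactose Sgk1, a kinase that raises SGLT1 activity in frog oocytes, was higher (0.75, adjusted p = 0.0413), and Glp2r (-0.40), Gcg (-0.48) and Prkaa1 (-0.12) were lower. Over all genes 15.6% were called with lactose against glucose and 30.9% with lactose against galactose. With library totals the counts of this list were 6 lower for lactose against glucose and 9 lower for lactose against galactose, and none higher.

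Of 15 tested genes of sodium and water handling, 1 was lower with galactose than with glucose and none higher, where 4.07% of all genes were called. It was Aqp3, a channel for water and glycerol, which fell by 0.69 (92.40 ± 23.6 against 149.2 ± 47.8 CPM, edgeR adjusted p = 0.00388). With lactose it was higher than with glucose (203.0 ± 34.1 CPM, log2 0.44, adjusted p = 0.0346) and higher than with galactose (1.14, adjusted p = 3.42e-07), so that its diets stood in the same order as those of Slc5a4b. Slc9a3, the sodium-proton exchanger NHE3 of the brush border, averaged 188.8 ± 40.1 CPM with lactose and 331.6 ± 90.2 CPM with galactose (log2 -0.81, adjusted p = 7.11e-05). Atp1b3 was lower with lactose than with glucose (-0.19). With library totals no gene of the list, Aqp3 included, was called as higher with lactose than with glucose and 3 were lower, and with lactose against galactose 1 was higher and 5 lower.

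The solutes ascribed to Slc5a9 and Slc5a11 have enzymes of their own. Of 15 tested genes of mannose and hexosamine entry, 1 was higher and 1 lower with galactose against glucose, 2 higher and 2 lower with lactose against glucose, and 4 higher and 4 lower with lactose against galactose. Over all genes 4.07%, 15.6% and 30.9% were called in these comparisons. Pmm1, a phosphomannomutase, averaged 62.25 ± 18.9 CPM with lactose, 30.95 ± 12.2 CPM with galactose and 66.32 ± 20.5 CPM with glucose (galactose minus glucose log2 -1.10, edgeR adjusted p = 2.11e-04). Mpi, which interconverts mannose and fructose phosphates, was higher with lactose than with glucose (0.22, adjusted p = 0.00391). Of 10 tested genes of myo-inositol synthesis and use, none passed with galactose against glucose in edgeR, DESeq2 or voom, and 1 had an unadjusted edgeR p under 0.05. With lactose against glucose Pik3c2a (0.30) and Cdipt (0.21), the phosphatidylinositol synthase, were higher and Inpp1 (-0.61) and Isyna1 (-0.47), the synthase that makes inositol phosphate, were lower. With lactose against galactose 2 were higher and 1 lower. With library totals the mannose list had none higher and 5 lower for lactose against glucose, and 1 higher and 6 lower for lactose against galactose. The inositol list then had none higher and 4 lower for lactose against glucose, and none higher and 2 lower for lactose against galactose.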

How the data were processed

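Per the labels, scraped proximal small intestine of 39 mice was sequenced on a DNBSEQ platform, and titles and diets gave the groups. The authors deposited raw counts per gene, 1 file per mouse, and the submitters' processing notes name FastQC, STAR, HTSeq and the build GRCm39. Program versions, strand setting and annotation release are not given in the sources used here. Of 56980 identifiers 52073 were matched to symbols. The 5 summary lines, 10.1% to 15.7% of reads, were kept out of library sizes and tests. Exon lengths came from GENCODE on an earlier build and serve only to compare levels between genes.

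Counts were filtered with filterByExpr and scaled by TMM in edgeR 4.0.16 (R 4.3.3), which left 14658 genes. Quasi-likelihood F tests on 1 model with a mean per diet were two-sided, and p values were adjusted by Benjamini and Hochberg over all tested genes, with 0.05 as threshold. Log2 CPM used a prior count of 2. Scores are means of scaled log2 CPM over a marker list. Correlations used diet-centred log2 CPM with 100000 permutations within diets, and the log2 count ratio was compared by permutation of mice between diets, two-sided, and by an exact test over sign changes of triplet differences. The script was tested on simulated counts. Alternatives were DESeq2 1.42.0, limma 3.58.1 voom, RLE factors, library totals, no filter, covariates, subsets and leaving out each library. Named besides the carriers were the 5 genes most and 3 least like each, and up to 4 called members of a list by smallest p, of which some are not reported here. Scarce neighbours of these lists are given as counts. The members, lists and tests were chosen with earlier results of these data known. Each library is a separate mouse, but cages and litters are not in the labels. Motifs were searched with Python 3.11.15 in RefSeq promoters of 300 bases.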

Additional observations from a re-analysis of the deposited data

How the results depend on the processing

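Slc5a4b kept its direction and its call in all 3 comparisons under 14 alternatives, with log2 differences of -0.86 to -0.72 for galactose minus glucose, 0.59 to 0.85 for lactose minus glucose and 1.33 to 1.64 for lactose minus galactose, except that lactose minus glucose did not pass in titles 1 to 18 alone (0.59, edgeR adjusted p = 0.0686), where 6 mice per diet remained and 18 genes were called in place of 2281. Slc5a11 in lactose minus glucose lost its call there (0.48) and with the tissue score as covariate (0.29).

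Calls were gained as follows, and the cause was not tested. Slc5a9 in galactose minus glucose passed with library totals (0.31), DESeq2 (0.28), voom (0.26) and the tissue (0.38) or villus (0.29) score, and in lactose minus glucose with DESeq2 (0.25) and in titles 49 to 69 alone (0.42), but Slc5a9 in lactose minus glucose was 0.035 in titles 1 to 18, 0.11, 0.13 and 0.14 with the regional, tissue and villus scores and 0.15 with library totals. Slc5a11 in galactose minus glucose passed with voom (0.25), the triplet block (0.23) and the villus score (0.23), and in lactose minus galactose with the triplet block (0.20). In lactose minus glucose Slc5a1 passed with DESeq2 (0.41), voom (0.47) and the triplet block (0.45), and Slc5a4a with voom (0.71) and the triplet block (0.60). Both were smaller and not called with the tissue, regional and villus scores and library totals. In that order Slc5a1 was 0.28, 0.33, 0.29 and 0.30, and Slc5a4a 0.35, 0.42, 0.32 and 0.39.

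Signs turned for Slc5a4a in galactose minus glucose in titles 49 to 69 (-0.12), and in lactose minus galactose with the tissue score for Slc5a1 (-0.063), Slc5a4a (-0.082) and Slc5a11 (-0.029) and in titles 1 to 18 for Slc5a4a (-0.084), none called under either setting. Leaving out each library gave log2 ranges of 0.15 to 0.44 for Slc5a4a in galactose minus glucose, 0.12 to 0.33 for Slc5a4a and 0.10 to 0.22 for Slc5a1 in lactose minus galactose, none called, and 0.24 to 0.32 for Slc5a9 in galactose minus glucose, 0.33 to 0.48 for Slc5a1 and 0.19 to 0.27 for Slc5a9 in lactose minus glucose, and -0.086 to 0.0026 for Slc5a9 in lactose minus galactose, where it turned without galactose 8.

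Among correlations, r of Slc5a4b turned in titles 1 to 18 with Slc5a1 (0.031), Slc5a4a (0.057) and Slc5a11 (0.019), and with Slc5a4a also with triplet means removed (0.10). In titles 49 to 69 r of Slc5a1 and Slc5a11 (0.48), Slc5a4a and Slc5a11 (0.49) and Slc5a9 and Slc5a11 (0.47) no longer passed, and the last did not pass with library totals (0.34). Slc5a1 and Slc5a9 passed with triplet means removed (0.39) and in titles 1 to 18 (0.65), as did Slc5a4a and Slc5a9 there (0.62). The count ratio kept its calls in both runs and without galactose 4. Lactose minus glucose passed when paired within triplets (0.32), but not in either run with mice permuted (0.063 and 0.54).

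The labels give no replicate numbers shared between diets. The triplet block, paired by the order of titles alone, gave the calls named above. Genes called with galactose against glucose numbered 597, and 1247 with voom, 908 with the triplet block, 327 with the tissue score, 926 with the villus score, 72 in titles 1 to 18 and 179 in titles 49 to 69. With lactose against glucose they numbered 2281, and 3527 with library totals, 582, 1471 and 1227 with the tissue, regional and villus scores. With lactose against galactose they numbered 4532, and 954 with the tissue score, 950 in titles 1 to 18 and 2932 in titles 49 to 69. The lowest carrier count was 537, so depth limits no comparison of these genes, while 6 or 7 mice per diet limit the runs.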
